A study of Homo sapiens with 3 samples.

Results

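Barcodes rich in mitochondrial RNA were examined in single-cell libraries of FaDu, a human cell line from a squamous carcinoma of the hypopharynx. Barcodes were chosen by their measured share of mitochondrial UMIs. A barcode was taken as mitochondrial-rich when more than 20% of its UMIs (unique molecular identifiers, each standing for 1 captured RNA molecule) came from genes whose symbol begins with MT-, the genes of the mitochondrial genome. This held for 2933 of the 21857 deposited barcodes. They were compared with the 13879 barcodes of the same libraries at 2% to 8% mitochondrial UMIs, called comparison barcodes here. Because the mitochondrial share chose the barcodes, all comparisons of other genes used shares of the non-mitochondrial UMIs, given as CPM (UMIs of a gene per 1000000 non-mitochondrial UMIs), and mitochondrial genes are described without a test.

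Each group had 1 library, 3 in all. FaDu cells received cinobufotalin, a bufadienolide, a steroid of the kind toad venom contains. A TPF-resistant FaDu subline received TPF with cinobufotalin in one library and TPF alone in another, where TPF joins paclitaxel, cisplatin and 5-fluorouracil, the drugs with which the subline had been raised per the series description. The sources used here do not give doses, times or whether the subline is a single clone, and untreated cells were not analysed here. The preparation included lysis of erythrocytes, per the labels' protocols. The libraries are called FaDu cinobufotalin, resistant TPF cinobufotalin and resistant TPF, and values of the 3 libraries are given in that order throughout. With 1 library per group nothing was tested between groups, and library and treatment cannot be told apart.

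The mitochondrial genome encodes subunits of the respiratory chain and ATP synthase together with the ribosomal and transfer RNAs that translate them inside the organelle. Most mitochondrial proteins, however, are encoded in the nucleus, translated in the cytosol and imported. In droplet data a high mitochondrial share is widely used as a filter, because a cell whose plasma membrane leaks can lose cytosolic RNA while RNA enclosed in mitochondria or the nucleus is kept.

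Mitochondrial-rich barcodes numbered 689 of 6888 in the FaDu cinobufotalin library, 10.0% (95% Clopper-Pearson interval 9.30 to 10.7). They numbered 1179 of 8888 in the resistant TPF cinobufotalin library, 13.3% (12.6 to 14.0), and 1065 of 6081 in the resistant TPF library, 17.5% (16.6 to 18.5). The share was lowest in the FaDu cinobufotalin library and highest in the resistant TPF library, and the 3 intervals, which cover counting error only, did not overlap. This order depended on the threshold and did not hold among barcodes of like depth. Over 70% mitochondrial UMIs lay 7.43%, 7.02% and 11.4% of barcodes, where the intervals of the first and second library overlapped. Over 90% lay 4.20% in the FaDu cinobufotalin library (3.73 to 4.70) and 2.52% in the resistant TPF cinobufotalin library (2.20 to 2.87), which was thus the lowest there, and 5.03% in the resistant TPF library. Depth moved with these shares. Of barcodes with 500 to 1000 UMIs 74.1%, 53.7% and 44.8% were mitochondrial-rich, and of those with 1000 to 2000 UMIs 76.0%, 66.5% and 67.8%. The shares were 71.3%, 57.7% and 84.2% at 2000 to 5000 UMIs, and 30.6%, 7.31% and 57.9% at 5000 to 10000 UMIs. Under 2000 UMIs the FaDu cinobufotalin library thus had the highest share, and above that the resistant TPF library. Of barcodes with at least 10000 UMIs, 5 of 5841, 5 of 6325 and 27 of 4567 were mitochondrial-rich.

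**Figure D1:**
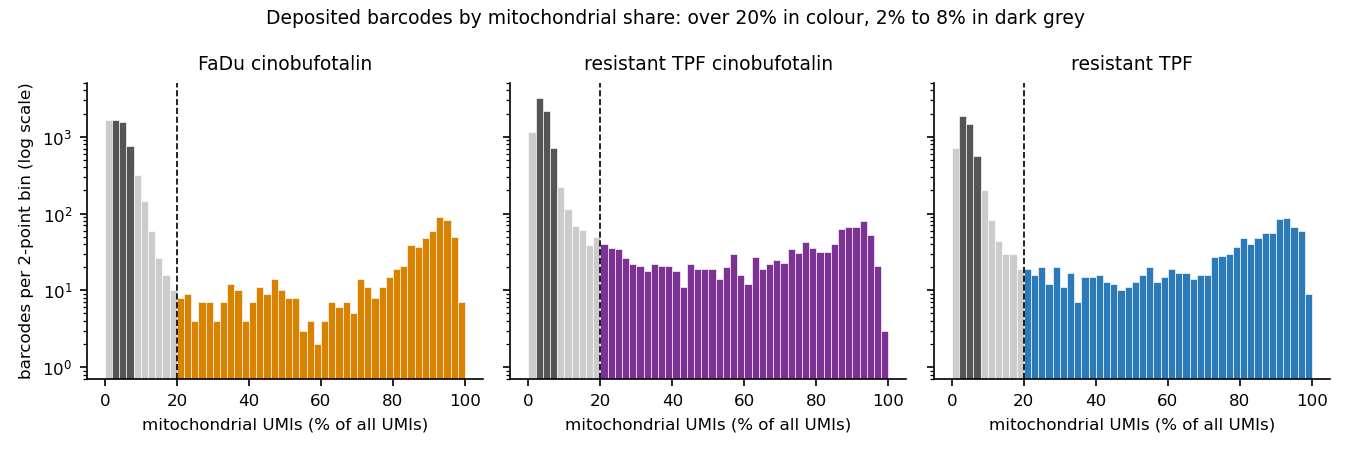
Number of barcodes (log axis) by share of mitochondrial UMIs (percent) in each library, with mitochondrial-rich barcodes coloured and comparison barcodes at 2% to 8% in dark grey. Most barcodes lie below 8%, and a second, broad group reaches its greatest height well above 70%, where 512, 624 and 691 of the mitochondrial-rich barcodes lie.

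The mitochondrial-rich barcodes did not gather near the threshold. Their median mitochondrial share was 87.7%, 72.8% and 80.9%, against 4.39%, 3.89% and 4.08% in comparison barcodes. More than 70% mitochondrial UMIs was found in 74.3%, 52.9% and 64.9% of them, and more than 90% in 41.9%, 19.0% and 28.7%. The highest share of any barcode was 98.7%, 98.2% and 98.4%.

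They held few UMIs. The median was 1498, 1867 and 2753 UMIs in mitochondrial-rich barcodes, against 24011, 18472 and 28633.5 in comparison barcodes. The deficit lay in the other RNA: the median barcode held 148, 471 and 433 non-mitochondrial UMIs, against 22931.5, 17710 and 27394. Its mitochondrial UMIs were 1174, 1145 and 1970 in number, against 1048, 707 and 1169.5 in comparison barcodes. In all 3 libraries the median mitochondrial UMI number was thus the higher one in mitochondrial-rich barcodes, and by a far smaller factor than that between the non-mitochondrial numbers. Both numbers enter the share that chose the barcodes, so they are given as a description only. A median of 138, 378 and 345 genes was detected, against 4779, 4769 and 5936. After thinning to 1000 non-mitochondrial UMIs, which 135, 339 and 337 mitochondrial-rich barcodes reached, the order turned, with 729, 773 and 760 genes against 619, 684 and 688. In sum mitochondrial-rich barcodes held 0.924%, 1.90% and 2.57% of each library's UMIs but 15.8%, 22.4% and 29.01% of its mitochondrial UMIs. Their summed non-mitochondrial UMIs, which set the precision of all values below, were 483616, 1126873 and 1232034.

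Few barcodes lay near the threshold. Just above it, at 20% to 22%, lay 8, 40 and 19 barcodes with a median of 6393.5, 3410.5 and 9102 UMIs, and just below, at 18% to 20%, lay 10, 50 and 19 with 10736.5, 4916 and 7737. The nuclear RNA MALAT1 made up 2.89%, 3.13% and 2.88% of non-mitochondrial UMIs just above, and 1.06%, 2.60% and 3.87% just below. A few barcode sequences occurred in more than 1 library, 12 to 19 per pair of libraries, and at most 7 of these were mitochondrial-rich in either library.

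The barcodes carried RNA of the cell line itself. All 12 squamous epithelial markers, among them the keratins KRT14 and KRT17, the adhesion protein CDH1 and the transcription factor TP63, reached 10 CPM in both classes, with a summed level of 12845, 8571 and 8778 CPM in mitochondrial-rich and 8047, 5068 and 6302 CPM in comparison barcodes. Of 10 immune markers none reached 10 CPM in either class, with sums of 6.20, 11.5 and 12.2 CPM against 7.60, 5.38 and 6.79. Of 8 fibroblast markers COL1A1 alone did, in mitochondrial-rich barcodes, while DCN, LUM and COL1A2 were at 0 there. LUM and COL1A2 were at 0 in comparison barcodes as well. The fibroblast sum was 49.6, 39.0 and 39.8 CPM, against 2.09, 3.66 and 3.83. The 6 endothelial markers summed to 26.9, 43.5 and 34.1 CPM, against 5.87, 5.05 and 5.88. Of these 1, 2 and 1 reached 10 CPM in mitochondrial-rich barcodes and none in comparison barcodes. CLDN5 and KDR were at 0 in mitochondrial-rich barcodes, and CLDN5 also in comparison barcodes of the FaDu cinobufotalin library. The 6 erythroid markers summed to 33.1, 21.3 and 26.8 CPM, nearly all of it HBA1, against 6.26, 10.1 and 12.5. The part of other cell types in the results was not tested, and no list of non-epithelial markers had more than 2 members at 10 CPM.

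The mitochondrial RNA itself was made up differently in the 2 classes, which is given as a description because these genes chose the barcodes. The markers that name this population, MT-CO1 and MT-ND4 and MT-CYB, encode subunits of complexes IV, I and III. MT-CO1 made up 7.32%, 5.78% and 5.32% of all UMIs of mitochondrial-rich barcodes, against 0.391%, 0.352% and 0.379% in comparison barcodes. MT-ND4 made up 4.74%, 4.43% and 4.16%, against 0.295%, 0.391% and 0.324%, and MT-CYB 2.15%, 1.33% and 1.41%, against 0.159%, 0.111% and 0.118%.

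Within the mitochondrial UMIs, ribosomal RNA took a larger share and the cytochrome c oxidase subunit MT-CO2 a smaller one. The 16S and 12S ribosomal RNAs, MT-RNR2 and MT-RNR1, together made up 40.5%, 43.2% and 52.5% of mitochondrial UMIs in mitochondrial-rich barcodes, against 19.0%, 18.4% and 26.4% in comparison barcodes. MT-CO2 made up 17.6%, 15.7% and 12.8%, against 38.4%, 34.5% and 31.5%. The complex I subunit MT-ND3 made up 2.71%, 2.58% and 2.28%, against 5.28%, 5.42% and 4.34%. Every library had the same direction for these 3 measures, and no value of one class lay within the range of the other. Other messages differed less, with MT-CO1 at 10.7%, 10.2% and 8.12%, against 8.93%, 8.84% and 9.02%, and MT-CO3 at 5.46%, 4.98% and 3.89%, against 5.38%, 5.74% and 4.88%.

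**Figure D2:**
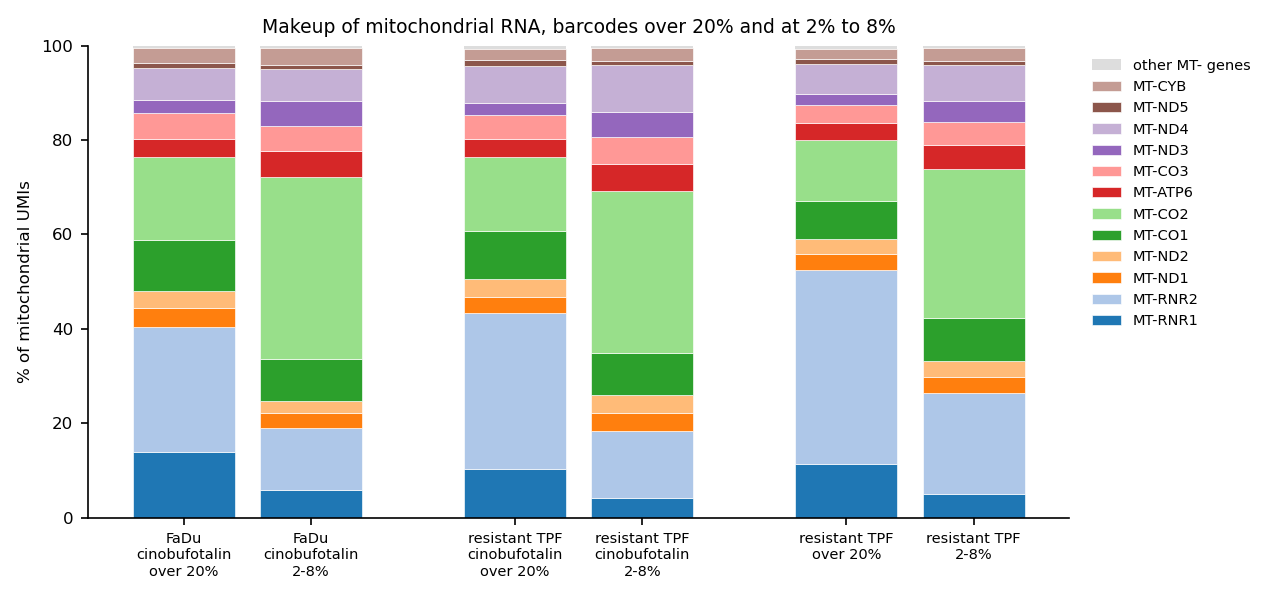
Share of mitochondrial UMIs (percent) taken by each mitochondrial gene, as stacked bars for mitochondrial-rich barcodes (left of each pair) and comparison barcodes (right) in the 3 libraries. The ribosomal RNA segments take 40.5% to 52.5% in mitochondrial-rich and 18.4% to 26.4% in comparison barcodes, and the MT-CO2 segment 12.8% to 17.6% against 31.5% to 38.4%.

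Depth moved with this make-up. The 45, 376 and 44 comparison barcodes with under 5000 UMIs had 34.6%, 37.7% and 47.7% ribosomal RNA and 26.1%, 19.0% and 15.4% MT-CO2 among their mitochondrial UMIs, between the values of the 2 classes. Among mitochondrial-rich barcodes the ribosomal share was 29.3%, 28.3% and 38.9% at 20% to 30% mitochondrial UMIs and 39.3%, 49.3% and 56.9% over 90%. Transfer RNAs stayed at or under 0.0335% in mitochondrial-rich and 0.0550% in comparison barcodes.

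UMIs assigned to nuclear copies of mitochondrial genes followed the mitochondrial RNA, and are likewise given as a description. Of 407 such copies 3 had a mean of at least 10 CPM, and these are among the genes counted as tested and higher below. The main one, MTATP6P1, is an unprocessed pseudogene on chromosome 1 (GENCODE 29 on hg38, chr1:633696-634376, plus strand) that copies MT-ATP6 (chrM:8527-9207, plus strand), which encodes a subunit of ATP synthase. Over their 681 bases the pair differed at 10 positions, an identity of 98.5%. Bases 501 to 660 of both, with the 3 differing bases of this stretch in capitals, show how little sequence separates a read of one from a read of the other:
MT-ATP6: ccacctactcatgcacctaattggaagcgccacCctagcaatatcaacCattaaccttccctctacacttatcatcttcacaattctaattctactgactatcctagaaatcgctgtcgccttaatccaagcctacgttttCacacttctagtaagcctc
MTATP6P1: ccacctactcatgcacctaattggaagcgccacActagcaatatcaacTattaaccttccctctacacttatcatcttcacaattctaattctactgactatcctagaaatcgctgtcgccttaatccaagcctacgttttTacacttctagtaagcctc
MTATP6P1 had 4030, 2065 and 3061 CPM in mitochondrial-rich barcodes, against 91.7, 64.1 and 82.5 CPM in comparison barcodes. Over 90% mitochondrial UMIs it reached 27888, 16062 and 19382 CPM, and all nuclear copies together 3.04%, 1.81% and 2.07% of the UMIs counted as non-mitochondrial. The level of this copy rose with the share of mitochondrial UMIs in every library, and reads of the mitochondrial gene assigned to it cannot be told apart from its own.

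The non-mitochondrial RNA of mitochondrial-rich barcodes differed from that of comparison barcodes for most genes. Of 10112 genes tested, 7668 (75.8%) were called by edgeR's quasi-likelihood test with Benjamini-Hochberg adjustment, with the library as a block. Of these 5470 (54.1% of genes tested) were higher and 2198 (21.7%) lower in mitochondrial-rich barcodes. A 2-fold change or more was called for 3903 genes (38.6%) upward and 980 (9.69%) downward, and 8549 (84.5%) had the same direction in all 3 libraries. A call alone therefore does not set a gene apart, and the size of its change and its direction against these shares are what is read below. The p-values measure how alike the 3 libraries are, each from cells of another group.

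Values depend on how the sums are scaled. The median gene was higher by 0.60 on the log2 scale, and after TMM scaling, which centres on the bulk of genes, it stood at -0.01 with 3790 genes higher and 3830 lower. In the main fit a gene or list is therefore above or below the bulk of genes according to whether its log2 ratio exceeds 0.60. Other settings have their own level. The median of these genes was 0.33 with the depth weighting described next, and 0.18 over those with a mean of at least 50 CPM. List counts below cover the members that passed the filter of a mean of 10 CPM. A gene under 10 CPM in comparison barcodes could pass it only by being higher in mitochondrial-rich ones, so the direction of such a gene was set by the filter. Depth mattered as well. When comparison barcodes were weighted to the depth of the mitochondrial-rich ones, for those with at least 400 non-mitochondrial UMIs (203, 623 and 554 barcodes), 1821 genes were higher and 957 lower. Only 48, 391 and 45 comparison barcodes held under 5000 non-mitochondrial UMIs, so that all values at matched depth below rest on few comparison barcodes. In each depth bin their counts were scaled to the summed UMIs of the mitochondrial-rich barcodes, upward where these held more, and entered the fit as counts. Comparison barcodes under 5000 UMIs held only 79981, 767074 and 63843 non-mitochondrial UMIs in sum. The fit thus understates counting error, and p-values and calls at matched depth are approximate.

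MALAT1, a long noncoding RNA held in the nucleus, was the most abundant single RNA to rise. It had 34017, 36158 and 41406 CPM in mitochondrial-rich barcodes, against 3830, 9450 and 10475 CPM in comparison barcodes. The lowest mitochondrial-rich value was above the highest comparison value. The fitted log2 ratio was 2.35 (adjusted p = 5.52e-07). The paraspeckle RNA NEAT1, also nuclear, had 5291, 5979 and 6233 CPM, against 1107, 1931 and 1631 CPM (log2 ratio 1.94, adjusted p = 5.06e-08), again without overlap. Against comparison barcodes of matched depth MALAT1 was not called (log2 ratio 0.50, adjusted p = 0.068), while NEAT1 was (1.32, adjusted p = 9.2e-05). In the shallow comparison barcodes under 5000 UMIs MALAT1 stood at 48662, 13357 and 36590 CPM.

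Other nuclear RNAs rose as well. Of 9 measured nuclear long noncoding RNAs 6 rose and 1 fell, with a median log2 ratio of 1.68, against 0.60 for all genes. That median was 0.97 without the FaDu cinobufotalin library, 0.83 at matched depth and 0.42 among members with a mean of at least 50 CPM. All genes stood at 0.54, 0.33 and 0.18 in these settings. Under TMM scaling 5 of the nuclear RNAs were higher and 3 lower. KCNQ1OT1, transcribed from an intron of an imprinted locus, had 45.5, 71.9 and 48.7 CPM, against 1.53, 4.43 and 4.94 CPM. MIR17HG, the primary transcript of a microRNA cluster, had 26.9, 16.9 and 15.4 CPM, against 1.34, 1.24 and 1.03 CPM, and was not called at matched depth (2.63, adjusted p = 0.056). KCNQ1OT1 and MIR17HG passed the filter on low genes only through the mitochondrial-rich barcodes, in which they had to be high. All 25 transcripts of a list of large, nuclear-retained or intron-rich messages rose, with a median of 1.35, or 0.65 at matched depth (all genes 0.33). Among them were the golgin genes GOLGA8A (4.05) and GOLGA8B (3.81), which share sequence so that their reads may be split, the cyclin CCNL2 (2.85) and the chromatin regulator ANKRD11 (2.34). Over all long intergenic noncoding RNAs 169 of 229 rose and 24 fell (median 1.60), and over antisense RNAs 172 of 240 rose and 26 fell (median 1.70), where reads of the overlapping sense gene cannot be told apart because the sources used here do not say whether strand was used. The filter on low genes favours a rise in both counts, for RNAs that are low in comparison barcodes.

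Long genes ranked above short ones. Over the 9358 protein-coding genes tested, the median log2 ratio was -0.27, 0.20, 0.38, 0.69 and 1.32 from the fifth with the shortest genomic span to the fifth with the longest. By transcript length the medians were -0.53 for the shortest and 1.13 for the longest, and by number of exons -0.14 for genes with fewest and 1.27 for those with most. Across these genes, which share the same 6 sums and are not independent, Spearman's rho with span, transcript length and exon number was 0.39, 0.41 and 0.41.

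RNA from ribosomal DNA loci and small structural RNAs had some of the highest ratios. FP236383.1, annotated as a long noncoding RNA on chromosome 21 (GENCODE 29 on hg38, chr21:8380665-8410645), spans a ribosomal DNA unit and overlaps the 5.8S ribosomal RNA gene RNA5-8SN3, so that UMIs of the overlapping genes cannot be told apart. It had 13227, 7489 and 9624 CPM in mitochondrial-rich barcodes, against 38.7, 31.0 and 35.9 CPM in comparison barcodes. All 3 mitochondrial-rich values stood far above all comparison values (log2 ratio 8.13, adjusted p = 5.17e-12). FP671120.1 overlaps another such gene, RNA5-8SN2, and had 546, 461 and 493 CPM, against 6.94, 7.17 and 6.58 CPM (6.17). It passed the filter on low genes only through the mitochondrial-rich barcodes, in which it had to be high. These genes and those of the next sentences were singled out after their values were seen, except RN7SL2 and SNORD3A.

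The small nuclear RNA 7SK, which holds the elongation factor P-TEFb inactive (ENSG00000202198), had 3980, 6521 and 6162 CPM, against 16.7, 37.6 and 24.0 CPM. RN7SL2, the RNA of the signal recognition particle that guides nascent proteins to the endoplasmic reticulum, had 498, 727 and 566 CPM, against 5.29, 13.8 and 14.9 CPM. Both groups of values were far apart for each RNA, with log2 ratios of 7.78 (adjusted p = 1.2e-11) and 5.80 (adjusted p = 3.51e-09). SNORD3A, the U3 RNA of ribosomal RNA processing, stood at 5.63 and the vault RNA VTRNA1-3 at 4.25. A list of such small noncoding RNAs, drawn up after values were seen, had 5 of 9 members measured, all higher, with a median of 5.63. Its member SNORD3A was under 10 CPM in comparison barcodes of every library, so the filter on low genes set its direction. 7SK and RN7SL2 have near-identical copies in the genome, so counts may be split among them.

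These ratios depended on depth. Against comparison barcodes of matched depth the log2 ratio was 1.47 for FP236383.1, 1.74 for 7SK, 1.79 for RN7SL2, 1.66 for SNORD3A and 3.12 for VTRNA1-3, all called. In the comparison barcodes under 5000 UMIs FP236383.1 had 4326, 1022 and 7002 CPM and 7SK 1313, 885 and 4495 CPM, far above the 31.0 to 38.7 CPM and 16.7 to 37.6 CPM over all comparison barcodes.

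By the same ranking 12 named genes were highest and 12 lowest, leaving out ribosomal protein genes, genes known by a clone name and nuclear copies of mitochondrial genes. Besides RN7SL2 and SNORD3A the highest were the pseudogenes SLC7A5P1 (6.79) and MRPS31P2 (5.81), CCM2L (5.72), PRIMA1 (5.63), LMNB1-DT (5.53), the minor spliceosomal RNA RNU6ATAC (5.53), TTC16 (5.40), PPP1R3C (5.32), a targeting subunit of the phosphatase that controls glycogen synthesis, LIFR-AS1 (5.21) and the protocadherin PCDH10 (5.12). Apart from RN7SL2 they had at most 5.91 CPM in the comparison barcodes of any library, so they passed the filter on low genes only through the mitochondrial-rich barcodes, in which they had to be high. Their log2 ratios were smaller at matched depth, between 1.15 for PPP1R3C and 2.56 for SLC7A5P1. The lowest were the mitochondrial glutaredoxin GLRX2 (-2.17), RWDD4 (-2.02), the metallothionein MT1F (-1.97), TMEM251 (-1.95), GCSH of the mitochondrial glycine cleavage system (-1.93), CKLF (-1.93), the ATP synthase subunit ATP5MC1 (-1.92), the import receptor TOMM22 (-1.91), PIGP (-1.89), PCBD1 (-1.88), and the RNA-binding proteins LSM1 (-1.87) and LSM2 (-1.86). Of the 12 lowest, PIGP and LSM1 were not called at matched depth and MT1F was not tested there, and GLRX2 rested on 2 UMIs in the mitochondrial-rich barcodes of the FaDu cinobufotalin library.

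**Figure D3:**
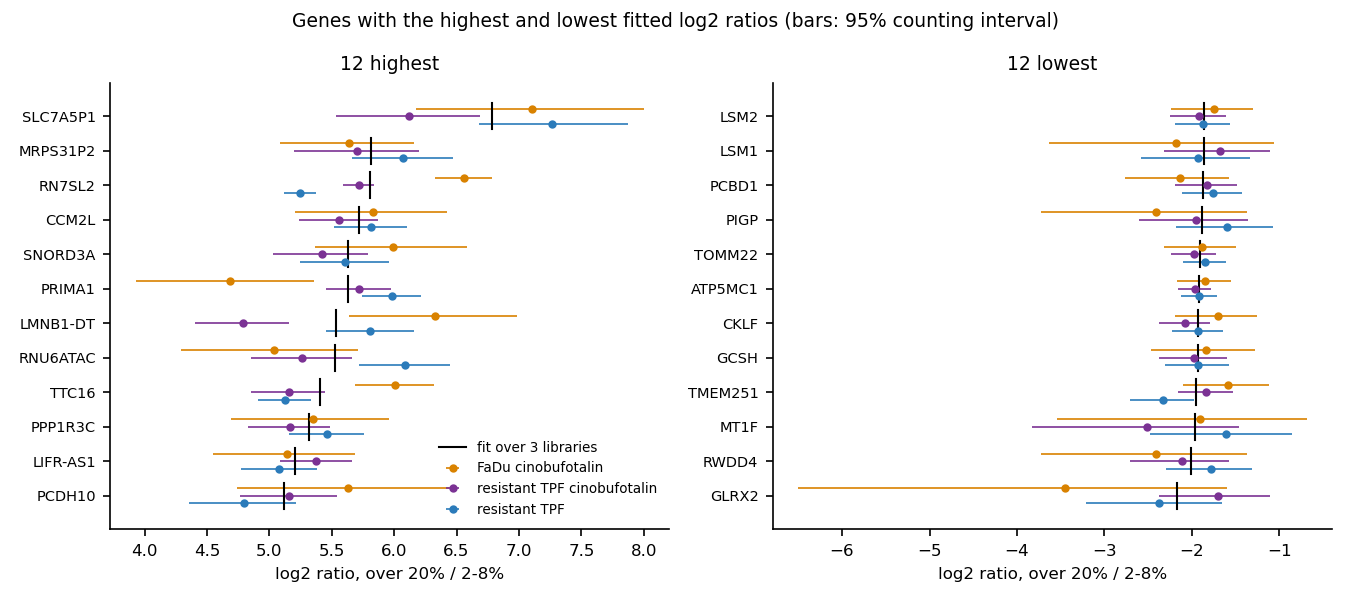
Log2 ratio of mitochondrial-rich over comparison barcodes for the 12 highest and 12 lowest named genes, with 1 point per library and bars for the 95% counting interval. The fitted ratios run from 5.12 to 6.79 among the highest and from -2.17 to -1.86 among the lowest, and every point of a gene lies on the same side of 0.

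Nuclear genes for the respiratory chain were lower, although the mitochondrial genes of the same complexes had chosen the barcodes. Of 73 such genes, 64 fell and 3 rose, with a median log2 ratio of -1.21 and library medians of -1.16, -1.28 and -1.20, against 0.76, 0.59 and 0.50 for all genes. Together they made up 1.48%, 1.36% and 1.33% of non-mitochondrial UMIs, against 3.27%, 3.39% and 3.03%. ATP5MC1, which forms the membrane ring of ATP synthase, had 180, 201 and 157 CPM in mitochondrial-rich barcodes, against 649, 784 and 592 CPM in comparison barcodes (-1.92, adjusted p = 4.11e-08). UQCRH of complex III had 533, 674 and 597 CPM, against 1715, 2379 and 1924 CPM (-1.73, adjusted p = 2.54e-08), and NDUFA4 302, 351 and 312 CPM, against 1042, 1204 and 970 CPM (-1.73). No value of one class reached the range of the other. The 3 that rose were the complex III core proteins UQCRC1 (1.09) and UQCRC2 (0.65) and the complex I flavoprotein subunit NDUFV1 (0.94). UQCRC2 stood at the level of the median gene and was not called under TMM scaling (0.031, adjusted p = 0.838) or at matched depth.

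Further lists of nuclear-encoded mitochondrial proteins differed in their counts. Of 74 mitochondrial ribosomal proteins 63 fell and 2 rose (median -0.99), led by MRPS33 (-1.70), MRPL43 (-1.64) and MRPS18C (-1.62). Of 20 import proteins 14 fell and 1 rose (median -0.89). The receptor subunit TOMM22 had 103, 113 and 115 CPM, against 383, 444 and 416 CPM, while TIMM44, which ties the import motor to the inner membrane, rose by 0.67, which is near the level of the median gene and was not called under TMM scaling (0.060, adjusted p = 0.744) or at matched depth. Under TMM scaling no gene of the mitochondrial ribosomal protein and import lists was higher. Of 24 genes for mitochondrial DNA maintenance, transcription and RNA handling 12 rose and 9 fell (median 0.47, or -0.13 under TMM scaling). POLG, the catalytic subunit of the mitochondrial DNA polymerase, had 124, 110 and 101 CPM, against 23.4, 35.7 and 33.1 CPM (1.84, adjusted p = 2.34e-06), and its accessory subunit POLG2 rose by 2.68. SSBP1, which coats single-stranded mitochondrial DNA, had 118, 150 and 138 CPM, against 348, 325 and 321 CPM (-1.27, adjusted p = 2.73e-06), and TFAM, which packages that DNA, stood at -1.24. At matched depth POLG was not called (0.72, adjusted p = 0.087), whereas SSBP1 (-1.18) and POLG2 (2.13) were.

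Chaperones and proteases of the mitochondrion were mixed, with 5 of 15 higher and 6 lower (median 0.12, or -0.49 under TMM scaling). The proteases SPG7 (2.61), LONP1 (2.33) and YME1L1 (1.66) and the chaperone TRAP1 (1.56) rose, while the matrix chaperonin HSPD1 (-0.57) and its cofactor HSPE1 (-1.30) fell. Of 16 genes of mitochondrial dynamics and mitophagy 4 rose and 7 fell. The fission enzyme DNM1L (1.62) and the fusion protein MFN1 (1.27) rose, and the fission adaptor FIS1 fell (-1.17).

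**Figure D4:**
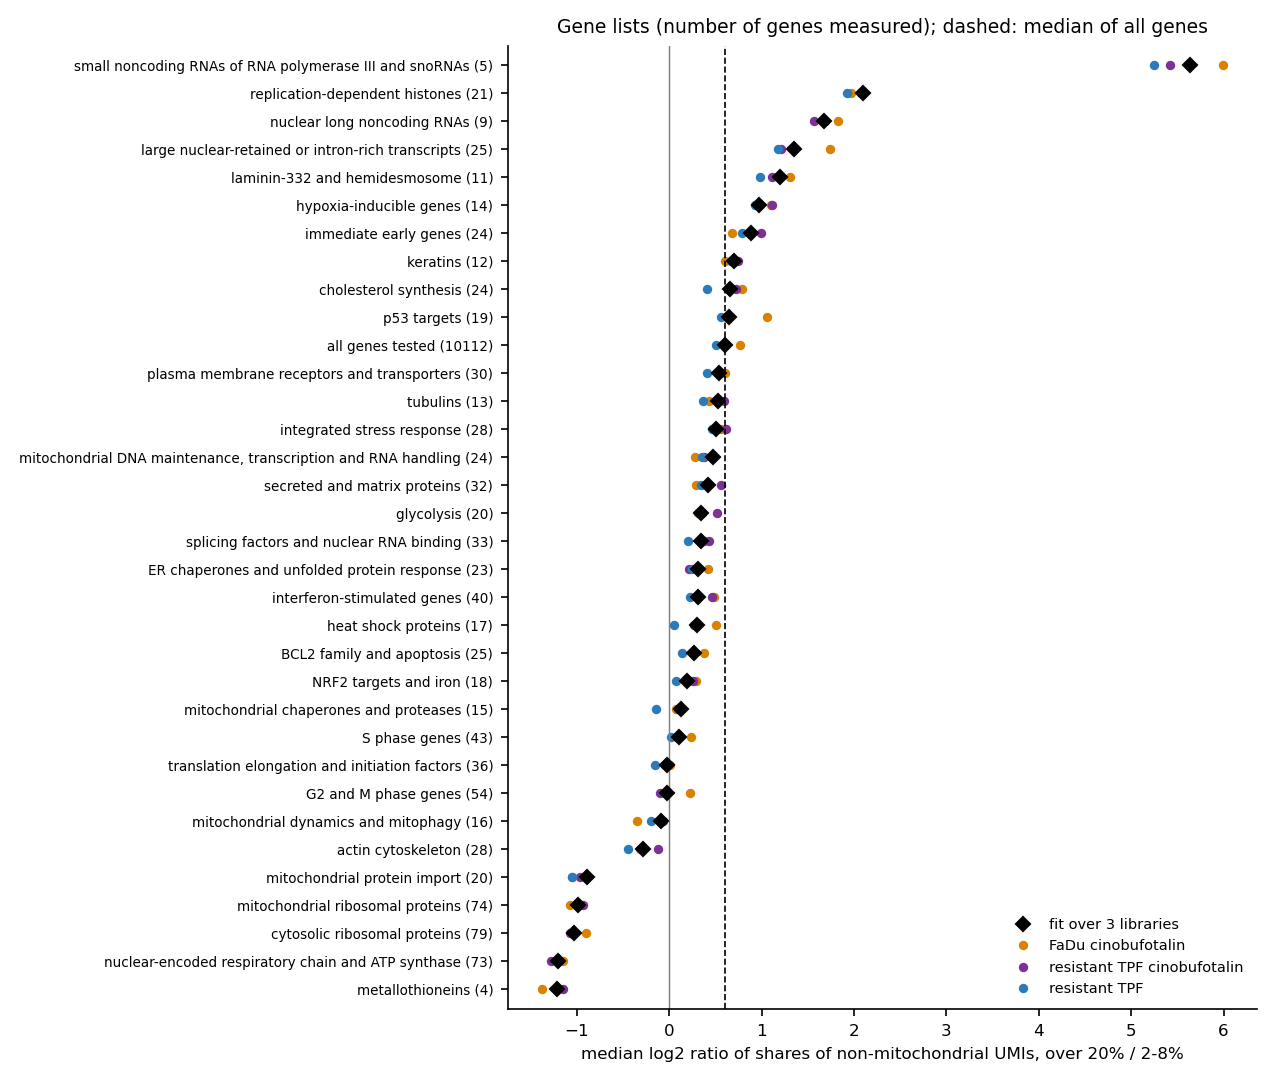
Median log2 ratio of mitochondrial-rich over comparison barcodes for each gene list, with 1 point per library and 1 for the fit over all 3, and a dashed line at the median of all genes (0.60). Respiratory chain, mitochondrial and cytosolic ribosomal protein, import and metallothionein lists lie furthest to the left. Small noncoding RNAs, a list drawn up after values were seen, lie furthest to the right (5.63), followed by histones, nuclear long noncoding RNAs and nuclear-retained transcripts.

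Cytosolic ribosomal proteins fell too. Of 79 genes 72 fell and 3 rose (median -1.03), and the list made up 10.7%, 7.27% and 7.12% of non-mitochondrial UMIs, against 19.3%, 15.2% and 14.7%. RPS12 had 4725, 2778 and 2716 CPM in mitochondrial-rich barcodes, against 10661, 8539 and 7928 CPM in comparison barcodes (-1.45, adjusted p = 1.18e-07). The exceptions RPS2 (0.59), RPL13A (0.41) and RPS9 (0.26) stood below the median gene, and under TMM scaling no ribosomal protein was higher. Messages for the iron storage protein ferritin were also lower without overlap. FTH1, the heavy chain, had 16786, 10698 and 12814 CPM, against 47388, 34289 and 37248 CPM (-1.57, adjusted p = 6.75e-09), and FTL, the light chain, had 2944, 2460 and 2495 CPM, against 8280, 7366 and 6968 CPM (-1.52). Of 8 metallothioneins, small metal-binding proteins, 4 passed the filter and all 4 fell, with MT2A at 4198, 3335 and 2785 CPM, against 11377, 8281 and 7383 CPM (-1.39). At matched depth FTH1 (-1.07), RPS12 (-1.15) and MT2A (-0.77) were still called, and MT1E and MT1X were not.

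Rising groups of messages included histones, immediate early genes and genes of the hemidesmosome. Of 21 replication-dependent histone genes, whose messages lack a poly(A) tail in dividing cells, 16 rose and 1 fell (median 2.10). HIST1H2BG had 199, 186 and 195 CPM, against 6.19, 10.7 and 11.1 CPM (4.38), while HIST1H4C, the one that fell, had 505, 994 and 716 CPM, against 963, 1076 and 1041 CPM (-0.51). These genes form a multigene family with near-identical members, so reads may be split among them. HIST1H2BG averaged under 10 CPM in comparison barcodes, so it passed the filter only through the mitochondrial-rich ones, in which it had to be high. The filter favours a rise in the histone count for every such low gene. Of 24 immediate early genes, transcribed within minutes of a stimulus, 19 rose and none fell (median 0.88). The AP-1 subunit JUN had 1303, 1927 and 2029 CPM in mitochondrial-rich barcodes, against 106, 343 and 386 CPM in comparison barcodes, with no overlap (2.82, adjusted p = 2.22e-07), and FOS (1.19) and EGR1 (1.49) rose as well. After TMM scaling 12 of the 24 were higher and 6 lower, and the list's median was 0.26.

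Of 11 genes of laminin-332 and the hemidesmosome, which anchor squamous cells to the basement membrane, 10 rose and 1 fell (median 1.20). The cross-linker PLEC had 354, 442 and 445 CPM, against 61.4, 47.5 and 47.4 CPM (3.01, adjusted p = 2.64e-08), and the laminin chains LAMA3 (2.04) and LAMB3 (1.72) rose. Anchoring fibrils were represented by COL7A1, which had 246, 397 and 309 CPM, against 12.2, 16.4 and 12.5 CPM (4.53, adjusted p = 1.18e-09) and stood at 1.74 at matched depth. Keratins KRT17 (1.34), KRT14 (1.68) and KRT16 (1.96) rose. KRT5 rose by 0.58 (adjusted p = 0.00225), and its ratio turned to -0.054 under TMM scaling. KRT81 had 68.2, 2.66 and 0.812 CPM, against 4.20, 4.06 and 3.74 CPM, so that it was high in the FaDu cinobufotalin library alone, and it was not called (1.71, adjusted p = 0.0735).

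The medians of stress and death gene lists lay near or below that of all genes. Of 28 integrated stress response genes 15 rose and 2 fell, but the median of 0.51 lay below that of all genes and turned to -0.12 under TMM scaling, with 10 higher and 12 lower. ATF4, the response's transcription factor, had 600, 414 and 550 CPM, against 294, 261 and 325 CPM (0.81, adjusted p = 2.57e-05), and DDIT3, its proapoptotic target, 118, 209 and 222 CPM, against 61.5, 139 and 158 CPM (0.64, adjusted p = 0.000869). Under TMM scaling neither was called, at 0.19 and 0.02. The amino acid transporter SLC7A5 (1.71), the alanyl-tRNA synthetase AARS (1.65) and SESN2 (1.64) stood well above the median gene. Of 17 heat shock genes 7 rose and 3 fell (median 0.30), and of 23 genes of the endoplasmic reticulum chaperones and unfolded protein response 11 rose and 7 fell (median 0.31). Under TMM scaling these medians turned to -0.33 and -0.30.

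Among 25 genes of the BCL2 family and apoptosis 9 rose and 4 fell (median 0.27, or -0.33 under TMM scaling). BBC3, a BH3-only activator of mitochondrial permeabilisation, had 184, 91.4 and 76.3 CPM, against 41.0, 25.1 and 28.2 CPM (1.82, adjusted p = 1.61e-06), and the initiator caspase CASP9 stood at 1.78, APAF1 of the apoptosome at 1.502 and the BH3-only BCL2L11 at 1.49, of which CASP9 (1.40, adjusted p = 0.051) and APAF1 (0.54, adjusted p = 0.35) were not called at matched depth. BAX, the pore former, had 97.2, 61.2 and 73.1 CPM, against 256, 179 and 185 CPM (-1.43, adjusted p = 1.87e-06). Of 19 p53 targets 12 rose and 2 fell (median 0.64, or 0.04 under TMM scaling with 7 higher and 5 lower), with PLK3 (2.91) and MDM2 (1.89) among those higher, and CDKN1A, the cell cycle inhibitor, at -0.28 (adjusted p = 0.0415), which turned to 0.24 at matched depth.

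Metabolic and cycle genes varied within each list. Of 14 hypoxia-inducible genes 10 rose and 1 fell (median 0.97), led by ANGPTL4, a secreted lipase inhibitor, with 86.8, 249 and 234 CPM, against 6.73, 13.4 and 15.4 CPM (3.98). Of 24 cholesterol synthesis genes 13 rose and 1 fell (median 0.65, or 0.04 under TMM scaling with 9 higher and 7 lower), and of 20 glycolysis genes 10 rose and 6 fell (median 0.34, or -0.28 under TMM scaling), with the lactate exporter SLC16A3 at 2.53 and lactate dehydrogenase LDHA at -0.83. Of 43 S phase genes 13 rose and 12 fell, and of 54 genes of G2 and M phase 17 rose and 15 fell. With TMM these counts became 4 and 25 for S phase, and 10 and 33 for G2 and M phase. MKI67, a marker of cycling cells, had 99.3, 156 and 201 CPM, against 39.4, 94.1 and 110 CPM (0.93, adjusted p = 0.000124) and stood at -0.062 at matched depth. ATP1B1, a beta subunit of the sodium pump, had 105, 114 and 114 CPM, against 70.1, 77.2 and 70.3 CPM (0.62, adjusted p = 0.0015), which is the level of the median gene and came to -0.0042 under TMM scaling.

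The remaining lists are given by their counts. Of 40 interferon-stimulated genes 19 rose and 7 fell (median 0.31), of 36 translation factors 10 rose and 16 fell (-0.02), of 33 splicing factors 18 rose and 4 fell (0.34), and of 28 actin cytoskeleton genes 8 rose and 14 fell (-0.29). Of 32 secreted and matrix proteins 16 rose and 9 fell (0.41), of 30 membrane receptors and transporters 20 rose and 6 fell (0.54), of 13 tubulins 7 rose and 6 fell (0.53), of 18 NRF2 targets and iron genes 7 rose and 5 fell (0.19), and of 12 keratins 8 rose and 2 fell (0.70). Under TMM scaling every positive median of these lists turned negative, at -0.08 to -0.42, except that of the keratins, which stood at 0.07, and in each of them more members were lower than higher, except for 3 keratins either way. The actin list was led upward by the filamin FLNA (1.84) and the myosin heavy chain MYH9 (1.56), and ARPC3 of the Arp2/3 complex led it downward (-1.44).

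The pattern changed within the mitochondrial-rich barcodes as the mitochondrial share grew. MALAT1 had 33648, 33892 and 44116 CPM at 20% to 30%, 44623, 43799 and 47931 CPM at 50% to 70%, 27154, 22534 and 24664 CPM at 70% to 90% and 6795, 6337 and 5855 CPM over 90%. Above 90% the level of MALAT1 was thus back near that of comparison barcodes, above it in the FaDu cinobufotalin library and below it in both resistant libraries. Cytosolic ribosomal proteins ran the other way, at 10.97%, 7.27% and 6.51% of non-mitochondrial UMIs at 20% to 30%, 8.56%, 6.56% and 5.61% at 50% to 70% and 17.3%, 15.0% and 13.5% over 90%. The respiratory chain list stood at 1.59%, 1.32% and 1.22%, then 1.20%, 1.28% and 1.03%, and over 90% at 2.86%, 2.95% and 2.86%. FP236383.1 rose with the share up to 70% to 90%, where it had 31288, 20888 and 20561 CPM, and had 17560, 12542 and 15790 CPM over 90%.

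**Figure D5:**
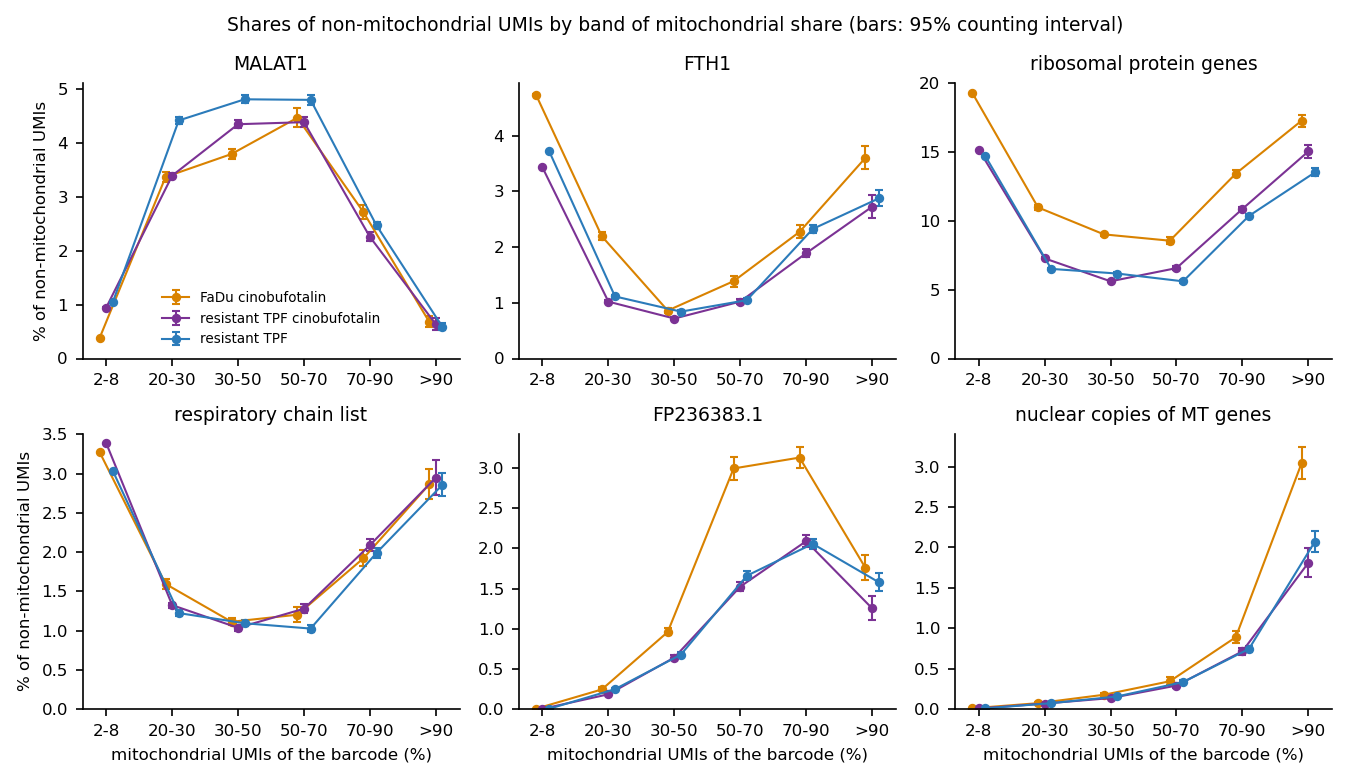
Share of non-mitochondrial UMIs (percent, with 95% counting intervals) taken by MALAT1, FTH1, ribosomal protein genes, the respiratory chain list, FP236383.1 and nuclear copies of mitochondrial genes, by band of mitochondrial share, for the 3 libraries. MALAT1 forms an arch and FTH1, ribosomal protein and respiratory chain genes a trough with its floor at 30% to 70%, and nuclear copies climb throughout.

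Against comparison barcodes 77.1% of genes were called for barcodes at 20% to 70%, 27.3% for those over 70% (19.1% higher and 8.21% lower) and 0.897% for those over 90%. A direct test of barcodes over 70% against those at 20% to 70%, a comparison added after the data were seen, called 932 of 10731 genes higher (8.69%) and 1818 lower (16.9%), with the median gene at -0.28. Of 73 respiratory chain genes 56 were higher and none lower (median 0.85), of 79 cytosolic ribosomal protein genes 70 and none (0.76), and of 74 mitochondrial ribosomal protein genes 37 and 1 (0.83). FTH1 was higher by 1.11 (adjusted p = 1.44e-16), UQCRH by 1.21 and RPS12 by 0.97. MALAT1 was lower, at -0.99 (adjusted p = 4.47e-12), as were NEAT1 (-0.88), JUN (-0.50) and KRT17 (-0.55). Of 25 nuclear-retained transcripts 16 were lower and none higher, and of 24 immediate early genes 17 and none. COL7A1 was not called (0.16, adjusted p = 0.504).

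Barcodes over 90% numbered 289, 224 and 306 and held 29726, 22724 and 51234 non-mitochondrial UMIs in sum, which limits what can be seen. Against comparison barcodes 54 genes were called higher (0.629% of 8580) and 23 lower (0.268%), and 718 had an unadjusted p below 0.05. The higher ones include the nuclear copies MTND2P28 (8.81), MTND1P23 (8.19), MTATP6P1 (8.03), MTCO1P12 (7.70) and MTCO2P12 (7.35). Such copies followed the mitochondrial RNA that chose the barcodes, so their calls are not read as a result. Among the remaining higher genes were FP236383.1 (8.76), 7SK (6.31), RN7SL2 (6.02), the brain cytoplasmic RNA BCYRN1 (3.80), COL7A1 (3.35), KRT16 (2.89), PLEC (1.91), JUN (1.06), RPS2 (0.87) and KRT17 (0.79). Lower were the growth factors AREG (-1.38) and HBEGF (-1.57), NEAT1 (-0.68), the histone HIST1H4C (-0.91) and FTH1 (-0.37). HBEGF was not called over all mitochondrial-rich barcodes (-0.11, adjusted p = 0.34).

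Whether cinobufotalin goes with a difference within this population was asked of the pair of resistant libraries, which differ in that 1 labelled factor. With 1 library each there is no test, and intervals cover counting error only. Of 4422 genes with a mean of at least 50 CPM in mitochondrial-rich barcodes, 5 were at least 2-fold higher with cinobufotalin (0.113%) and 2 at least 2-fold lower (0.0452%). Each of these 2-fold genes had an interval that also held ratios under 2-fold. Over the comparison barcodes none of the 4422 genes was 2-fold higher and 1 was lower (0.0226%). Those sums held 105328296 and 108715468 non-mitochondrial UMIs, against 1126873 and 1232034 in mitochondrial-rich barcodes, so counting error alone would put more genes past 2-fold in the latter. With a mean of at least 100 CPM, or with barcodes over 15%, 0 genes were 2-fold higher. The median ratio was 0.02 in mitochondrial-rich and -0.01 in comparison barcodes, and for 4269 genes the interval excluded a 2-fold difference, while for 153 it reached one.

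Genes higher with cinobufotalin were MARCH3, a ubiquitin ligase of membranes, with 77.2 CPM in the resistant TPF cinobufotalin and 36.5 CPM in the resistant TPF library (log2 ratio 1.08, 0.54 to 1.63), RAB38 (1.06), SH3TC2 (1.06), the interferon IFNL1 with 111 CPM in the resistant TPF cinobufotalin and 54.4 CPM in the resistant TPF library (1.03, 0.59 to 1.48) and CCDC200 (1.03). In comparison barcodes these stood at -0.10, -0.16, 0.09, -0.02 and 0.80, so that CCDC200 alone had a ratio of similar size there. IFNL1 was higher mainly at 20% to 30% mitochondrial UMIs, with 103 UMIs in the resistant TPF cinobufotalin and 23 in the resistant TPF library (1.92). Its log2 ratio was -0.75 at 30% to 50%, 0.49 at 50% to 70% and -0.48 at 70% to 90%, on 22 UMIs or fewer per library, and over 90% it had 0 and 8 UMIs. SH3TC2 stood at -0.65 at 20% to 30% and above 0 in the next 3 bands, while MARCH3, RAB38 and CCDC200 were above 0 in all 4 bands up to 90%. The chemokine CCL5 was lower, with 94.95 CPM in the resistant TPF cinobufotalin and 205 CPM in the resistant TPF library (-1.11, -1.45 to -0.78), against -0.17 in comparison barcodes, and so was RPL3L (-1.08), a muscle paralog of RPL3. The next in rank were REL at 0.95 and, on the other side, ZNF165 (-0.96), CCDC62 (-0.90), PYCARD-AS1 (-0.85), SLC43A2 (-0.84) and COMMD10 (-0.81). MALAT1 differed by -0.20, and no gene of the respiratory chain list was 2-fold apart in either direction (median 0.02 over 65 genes). The differences between these ratios and those of comparison barcodes were not tested.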

How the data were processed

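Single-cell RNA libraries of 3 samples, 1 per group, were used. The deposited values are raw UMI counts for each gene and barcode. The authors' tool was Cell Ranger 7.0 and the build hg38, per the submitters' processing notes. Barcodes had already been selected (none under 500 UMIs). The sources used here do not give the barcode filter, the annotation or the use of intronic reads and strand. All 58735 gene IDs were found in GENCODE 29.

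UMIs were summed per library and class over mitochondrial-rich barcodes (over 20%) and comparison barcodes (2% to 8%), 6 sums in all. Genes outside the mitochondrial genome with a mean of at least 10 CPM were tested with edgeR 4.0.16 in R 4.3.3, by its quasi-likelihood test with the library as a block (2 residual degrees of freedom, common biological coefficient of variation 12%), non-mitochondrial totals as library sizes and Benjamini-Hochberg adjustment over all genes tested, and called at an adjusted p below 0.05. Both sums of a block come from the same library, which pairs the classes. Shares, 95% Clopper-Pearson intervals and thinning (seed 7) used scipy 1.17.1, pandas 2.3.3 and numpy 2.4.6 in Python 3.11.15. Intervals cover counting error only. No doublet caller was used, doublets remain, and no correction for free RNA was made.

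Members and gene lists were chosen with earlier results of these data known. Named genes are mitochondrial genes with at least 0.5% of mitochondrial UMIs, the 12 highest and 12 lowest called genes with a mean of at least 20 CPM and 1 direction in 3 libraries, up to 4 members per list with the largest ratios, and MALAT1, NEAT1, KRT5, KRT17, CDKN1A, MKI67, ATF4, DDIT3, TXNIP and ATP1B1. In the resistant pair they are the 6 highest and 6 lowest at 50 CPM. Other genes named were picked after their values were seen, and 2 genes that the rule names are not reported here. On simulated counts for this comparison, 44 of 50 genes at 2-fold, 24 of 50 at 1.5-fold, 17 of 47 at 0.667-fold and 35 of 47 at 0.5-fold were called, and 2 of 9911 unchanged genes. The simulation gave every gene the same spread and left most genes unchanged, unlike these data, so its rates need not hold here. Alternatives were TMM, DESeq2 1.42.0, other totals, filters, thresholds and comparison barcodes, depth weighting over 9 bins, thinning, no block, each library left out and, added after the data were seen, bands of mitochondrial share.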

Additional observations from a re-analysis of the deposited data

Results flagged for a closer look

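TXNIP, which encodes a thioredoxin-binding protein induced by glucose, moved in opposite directions in the FaDu cinobufotalin library and in both libraries of the resistant subline. It had 74.4 CPM in mitochondrial-rich barcodes of the FaDu cinobufotalin library, against 19.3 CPM in its comparison barcodes (log2 ratio 1.95). In the resistant TPF cinobufotalin library it had 119 CPM, against 173 CPM (-0.54), and in the resistant TPF library 114 CPM, against 167 CPM (-0.56). The FaDu library is the one with the low comparison level. The difference between these libraries was not tested, since each group had 1 library. Line and TPF cannot be told apart in it, because only the subline received TPF. The fit over all 3 libraries did not call the gene (-0.04, adjusted p = 0.914 by edgeR). It was called lower under TMM scaling (-0.70, adjusted p = 0.019), after thinning of barcodes (-0.55, adjusted p = 0.028) and without the FaDu cinobufotalin library (-0.55, adjusted p = 1.76e-06), and in no other alternative.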

How the results depend on the processing

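Of the 5470 genes higher and 2198 lower in mitochondrial-rich barcodes, counts moved with the filter on low genes, the scaling and the barcodes taken. DESeq2 called 3546 higher and 3493 lower and TMM scaling 3790 and 3830, since both centre on the median gene, and of 6015 genes called both with and without TMM 5988 kept their direction. Testing all genes called 11200 higher. A mean of at least 50 CPM left 1683 higher (45.1% of genes tested) and 1396 lower (37.4%), against 54.1% and 21.7% without it. The median gene stood at 0.18 there, so the balance of directions moved along with the number of genes tested. Weighting comparison barcodes to the depth of the mitochondrial-rich ones left 1821 and 957, and 2686 of these calls were shared with the unweighted fit, all in the same direction. The weighted fit understates counting error, because comparison counts were scaled before it. Barcodes over 70% gave 1788 and 768, and those over 90% gave 54 and 23, with fewer UMIs. Leaving out 1 library at a time gave 4807 to 5714 higher and 1700 to 2437 lower. Without the replicate block, in which each library pairs its 2 classes, 4927 were higher and 1813 lower.

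The share of mitochondrial-rich barcodes depends on its definition. In the FaDu cinobufotalin, resistant TPF cinobufotalin and resistant TPF libraries it was 13.7%, 17.0% and 20.9% over 10% mitochondrial UMIs, 8.22%, 9.32% and 14.0% over 50%, 7.14%, 11.4% and 16.2% among barcodes with at least 1000 UMIs, and 8.73%, 10.6% and 13.3% by protein-coding mitochondrial genes alone. In the resistant TPF cinobufotalin library it was 14.6% over 15%, 12.2% over 25% and 11.5% over 30%, and in the resistant TPF library 16.1% over 30%. Their order was the same under each of these, but not at 2 thresholds added after the data were seen, over 70% (7.43%, 7.02% and 11.4%) and over 90% (4.20%, 2.52% and 5.03%). Mean UMIs were 2246, 2220 and 3348, and genes after thinning 729, 773 and 760. Mitochondrial ribosomal RNA made up 41.0%, 45.0% and 53.4% over 30%, 39.6%, 42.1% and 51.8% over 15%, and 38.5%, 44.8% and 53.5% as a mean over barcodes. MT-CO2 made up 17.2%, 14.9% and 12.4%, then 18.3%, 16.3% and 13.1%, then 17.6%, 14.9% and 12.2%. In the resistant pair the 5 genes higher became 3 (TMM), 53 (at least 20 CPM), 0 (at least 100 CPM), 14 (over 30%) and 0 (over 15%), and the 2 lower became 31 (20 CPM), 1 (100 CPM), 0 (over 15%) and 8 (at least 1000 non-mitochondrial UMIs).

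Directions turned in 23 values of named genes, leaving out over 90% the 53 of 165 genes with 3 or fewer UMIs there, of which 11 also had a turned sign. Over 90% these were MALAT1 (-0.24), NEAT1 (-0.68), MKI67 (-0.57), DDIT3 (-0.72), TXNIP (0.30), ATP1B1 (-0.90), SSBP1 (0.22), SLC7A5 (-0.022), GCLC (-0.56), PRIM1 (0.016), CDH1 (-0.72) and ARPC3 (0.029), and over 70% POLA1 (-0.82). Under TMM they were KRT5 (-0.054) and ATP1B1 (-0.0042), under DESeq2 KRT5 (-0.050) and KRT81 (-0.31), and with depth weighting KRT5 (-0.40), CDKN1A (0.24), MKI67 (-0.062) and SLC2A3 (-0.068). TXNIP, at -0.04 over all 3 libraries, stood at -0.55 without the FaDu cinobufotalin library, at 0.47 without the resistant TPF and 0.45 without the resistant TPF cinobufotalin library. Among list medians, heat shock genes stood at 0.17 without the FaDu cinobufotalin library and secreted and matrix proteins at 0.20 without the resistant TPF cinobufotalin library. The cause was not tested.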
